A study of Mus musculus with 21 samples.

Results

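Apc, Sfrp2 and Wif1 encode brakes of the Wnt pathway, and the data on them are the 500 bp windows and merged regions in which MeDIP-seq coverage had been listed by the study's authors, from a rank test, as higher (hyper) or lower (hypo) in 5 intestinal adenomas than in 6 samples of normal intestine. A window belonged to a gene when it lay within the mm9 gene body or the 1000 bp upstream of it. This rule found 7 of the 17690 listed windows and 6 of the 13980 merged regions. Apc held 3 windows and 3 merged regions, Sfrp2 held 1 of each, and Wif1 held 3 windows in 2 merged regions. The members were thus chosen by the rpm values of adenoma and normal intestine in these same samples. Because windows were listed for their difference between adenoma and normal intestine, all values for that comparison below describe how the regions were chosen and are given without a test.

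All mice were C57BL/6J males aged 15 to 19 weeks, and the tissue was ileum. Normal intestine came from 3 Apc-+/+ wild type mice (B6 normal, B1 to B3) and from 3 Apc-Min/+ mice (APCMin normal, N4 to N6), and adenoma came from Apc-Min/+ mice (Ad4, Ad4-1, Ad5, Ad6 and Ad7). Animal 4 gave N4, Ad4 and Ad4-1, animal 5 gave N5 and Ad5, and animal 6 gave N6 and Ad6, whereas no normal sample of the animal with Ad7 was measured. Every cell of an Apc-Min/+ mouse carries an Apc allele with a nonsense mutation from the germline, in normal intestine as well as in adenoma, and each sample was a piece of whole tissue of mixed cell types.

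Wnt ligands bind Frizzled receptors with Lrp5 or Lrp6 at the cell surface and thereby stop the breakdown of beta-catenin, which then acts with TCF/LEF factors on the genes that keep intestinal crypt cells dividing. Apc is a core part of the cytoplasmic complex that marks beta-catenin for breakdown, and loss of Apc starts adenomas in Apc-Min/+ mice and most human colorectal tumours. Sfrp2, a secreted Frizzled-related protein, and Wif1, the Wnt inhibitory factor, bind Wnt proteins outside the cell, and promoter methylation of SFRP2 and WIF1 is well known from human colorectal cancer.

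None of the 7 windows lay at a gene start (plot of regions along the genes). In Apc (ENSMUSG00000005871, chr18:34380578-34481843, plus strand, mm9), a pair of hypo regions lay in intron 1, at chr18:34383501-34384000 and chr18:34388251-34388750, with centres 3.17 kb and 7.92 kb from the gene start. The hyper region of Apc, chr18:34475751-34476250, lay 95.4 kb from the gene start and wholly inside exon 16, the long last exon, over codons 2015 to 2182 of the transcript with the longest coding sequence. In Sfrp2 (ENSMUSG00000027996, chr3:83570243-83578238, plus strand), the hypo region chr3:83575501-83576000 lay in intron 2 of the coding transcript, 5.51 kb from the gene start, and shared 39 bp with the last exon of a non-coding transcript of the gene. In Wif1 (ENSMUSG00000020218, chr10:120471016-120537706, plus strand), the hypo region chr10:120493501-120494250 lay in intron 2, and the hypo region chr10:120512251-120512750 covered all 109 bp of coding exon 3 with parts of its flanking introns. None of the regions touched an annotated UTR.

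**Figure D1:**
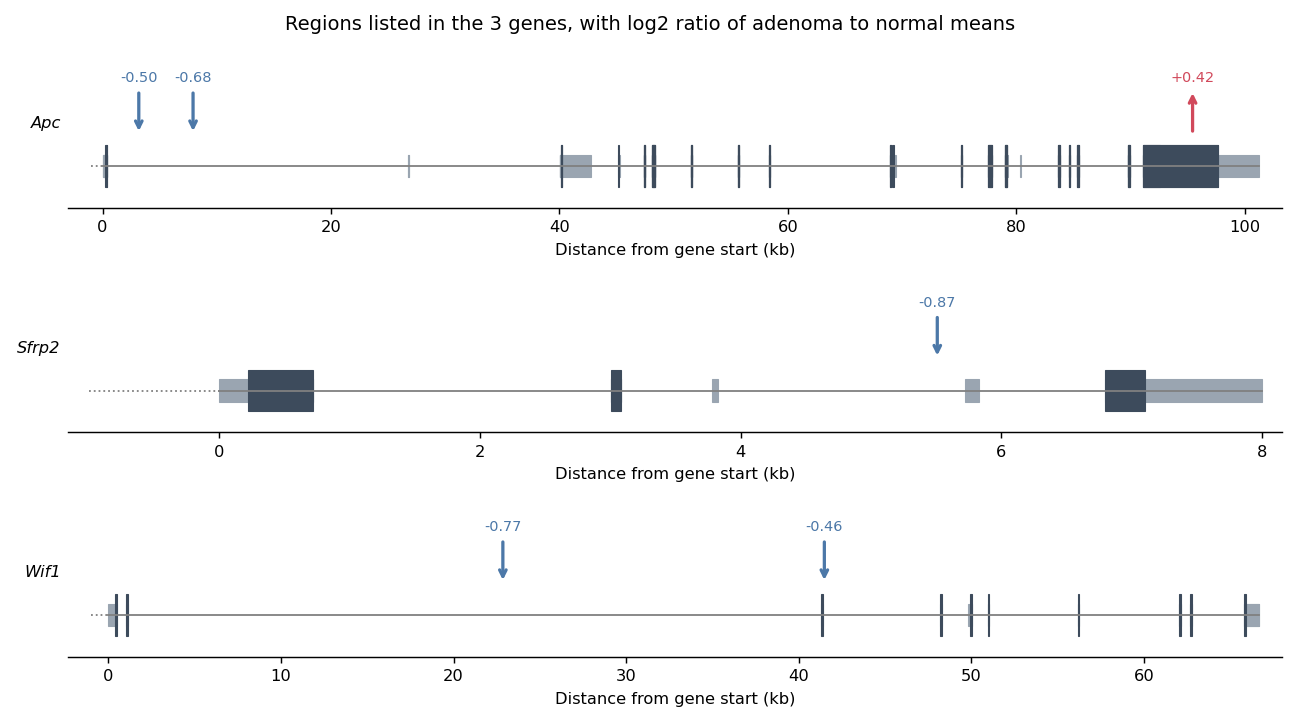
Position of the 6 merged regions along Apc, Sfrp2 and Wif1, as distance from the gene start in kb. Tall dark boxes are coding exons, low grey boxes are other exons, the dotted line is the 1000 bp upstream, and each arrow is a region with its log2 ratio of adenoma to normal means (up for hyper, down for hypo). The 5 hypo regions and the 1 hyper region all lie inside the genes and none at a start.

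The 300 bases richest in CpG sites are printed for the Sfrp2 region and both Wif1 regions, since the number of CpG sites sets how much methylated DNA the antibody can pull down there. They are plus-strand mm9 sequence with CpG in capitals, from chr3:83575504-83575803, chr10:120493501-120493800 and chr10:120512251-120512550, in this order.
Sfrp2 intron 2: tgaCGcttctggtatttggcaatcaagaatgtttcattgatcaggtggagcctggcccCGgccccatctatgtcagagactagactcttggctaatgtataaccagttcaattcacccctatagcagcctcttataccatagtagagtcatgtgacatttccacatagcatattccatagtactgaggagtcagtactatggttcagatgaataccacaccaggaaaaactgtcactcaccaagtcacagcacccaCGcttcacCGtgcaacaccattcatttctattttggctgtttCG
Wif1 intron 2: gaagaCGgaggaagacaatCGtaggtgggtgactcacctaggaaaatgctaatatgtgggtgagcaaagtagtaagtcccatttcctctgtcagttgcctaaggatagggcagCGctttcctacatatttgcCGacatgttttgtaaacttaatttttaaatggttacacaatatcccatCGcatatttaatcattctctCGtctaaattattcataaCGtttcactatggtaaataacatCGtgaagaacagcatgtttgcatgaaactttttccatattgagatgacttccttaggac
Wif1 exon 3: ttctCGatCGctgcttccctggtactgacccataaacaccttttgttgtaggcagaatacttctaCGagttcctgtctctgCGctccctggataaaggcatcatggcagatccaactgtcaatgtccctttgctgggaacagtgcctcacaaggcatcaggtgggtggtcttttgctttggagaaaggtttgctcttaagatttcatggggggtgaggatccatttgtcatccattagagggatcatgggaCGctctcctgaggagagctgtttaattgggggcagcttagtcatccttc
These stretches held 5, 8 and 5 CpG sites. The stretch named Wif1 exon 3 held the 109 bp of the exon, and the rest of it was intron. The whole regions held 7 sites in the 500 bp of Sfrp2, 15 in the 750 bp of Wif1 intron 2 and 9 in the 500 bp around Wif1 exon 3. The Apc regions held 9, 9 and 13 sites, the last number belonging to the hyper region in exon 16. The median was 9 sites in all merged hypo regions and 8 in all merged hyper regions, and the observed to expected CpG ratio of the 6 regions lay between 0.306 and 0.507. The TCF/LEF motif, searched as CTTTGAA and CTTTGAT on both strands, was found in 1 of the 7 windows, that of Sfrp2, against 18.4% of all 17690 listed windows.

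Coverage is given in rpm, the mean number of extended reads over a base per 1000000 uniquely aligned reads. The log2 ratio is that of the group means after 0.05 rpm was added to each. MeDIP enriches methylated DNA from whole tissue, so fewer methylated cells and less methylation per cell cannot be told apart.

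Coverage of Apc was higher in adenoma in the last exon and lower in intron 1. In exon 16, coverage was 0.82, 0.88 and 0.74 rpm in B1 to B3 and 0.98, 0.84 and 0.83 rpm in N4 to N6. It was 1.32 rpm in Ad4, 1.17 in Ad4-1, 0.89 in Ad5, 1.21 in Ad6 and 1.15 in Ad7. Ad5 lay below N4, so the groups overlapped, and the other 4 adenomas exceeded every normal sample. The mean of the 5 adenomas was 1.15 ± 0.158 rpm (SD) and that of the 6 normal samples 0.848 ± 0.0791 rpm (SD), which gave a log2 ratio of 0.42. This difference was small among listed hyper regions, of which 10.7% had a smaller change, and its 1.35-fold ratio of means stood just above the smallest ratio of any listed window, 1.32.

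The intron 1 region nearer to the Apc start had 0.45, 0.64 and 0.44 rpm in B1 to B3, 0.48, 0.38 and 0.48 rpm in N4 to N6, and 0.38, 0.37, 0.31, 0.36 and 0.20 rpm in Ad4, Ad4-1, Ad5, Ad6 and Ad7. Ad4 was level with N5, and the other 4 adenomas lay below every normal sample. The means were 0.324 ± 0.0744 rpm for adenoma and 0.478 ± 0.0873 rpm for normal samples, a log2 ratio of -0.50. The intron 1 region farther from the start had 0.36, 0.22 and 0.22 rpm in B1 to B3, 0.22, 0.24 and 0.33 rpm in N4 to N6, and 0.10, 0.19, 0.17, 0.06 and 0.21 rpm in the 5 adenomas in the same order. All adenomas lay below all normal samples here, but the highest adenoma and the lowest normal samples were only 0.01 rpm apart. The means were 0.146 ± 0.0635 rpm and 0.265 ± 0.0632 rpm, a log2 ratio of -0.68.

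Sfrp2 had the largest difference of the 6 merged regions by this ratio, with lower coverage in adenoma. Coverage of the intron 2 region was 0.24, 0.18 and 0.31 rpm in B1 to B3 and 0.30, 0.24 and 0.31 rpm in N4 to N6. It was 0.12 rpm in Ad4, 0.05 in Ad4-1, 0.17 in Ad5, 0.15 in Ad6 and 0.12 in Ad7. No adenoma reached the lowest normal sample, with Ad5 0.01 rpm below B2. The means were 0.122 ± 0.0455 rpm for adenoma and 0.263 ± 0.0524 rpm for normal samples, a log2 ratio of -0.87 and a 2.16-fold lower mean, and 84.3% of the merged hypo regions had a smaller change. The order turned with the constant, since with 0.5 rpm added in place of 0.05 the log2 ratio was -0.30 at Sfrp2 and -0.32 at Wif1 intron 2.

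Coverage of Wif1 was lower in adenoma at both regions. In intron 2, coverage was 0.28, 0.26 and 0.46 rpm in B1 to B3, 0.31, 0.42 and 0.51 rpm in N4 to N6, and 0.25, 0.17, 0.16, 0.22 and 0.19 rpm in Ad4, Ad4-1, Ad5, Ad6 and Ad7. Ad4 came within 0.01 rpm of the lowest normal sample, B2, without reaching it. The means were 0.198 ± 0.0370 rpm for adenoma and 0.373 ± 0.104 rpm for normal samples, a log2 ratio of -0.77. The region merged 2 overlapping windows with log2 ratios of -0.92 and -0.61, and in each of these windows alone the groups met or overlapped. Around exon 3, coverage was 0.65, 0.96 and 0.72 rpm in B1 to B3, 0.82, 0.70 and 0.71 rpm in N4 to N6, and 0.46, 0.66, 0.48, 0.50 and 0.59 rpm in the 5 adenomas. Ad4-1 lay just above B1, while the other 4 adenomas lay below all normal samples. The means were 0.538 ± 0.0844 rpm and 0.760 ± 0.113 rpm, a log2 ratio of -0.46, and 14.2% of merged hypo regions had a smaller change.

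**Figure D2:**
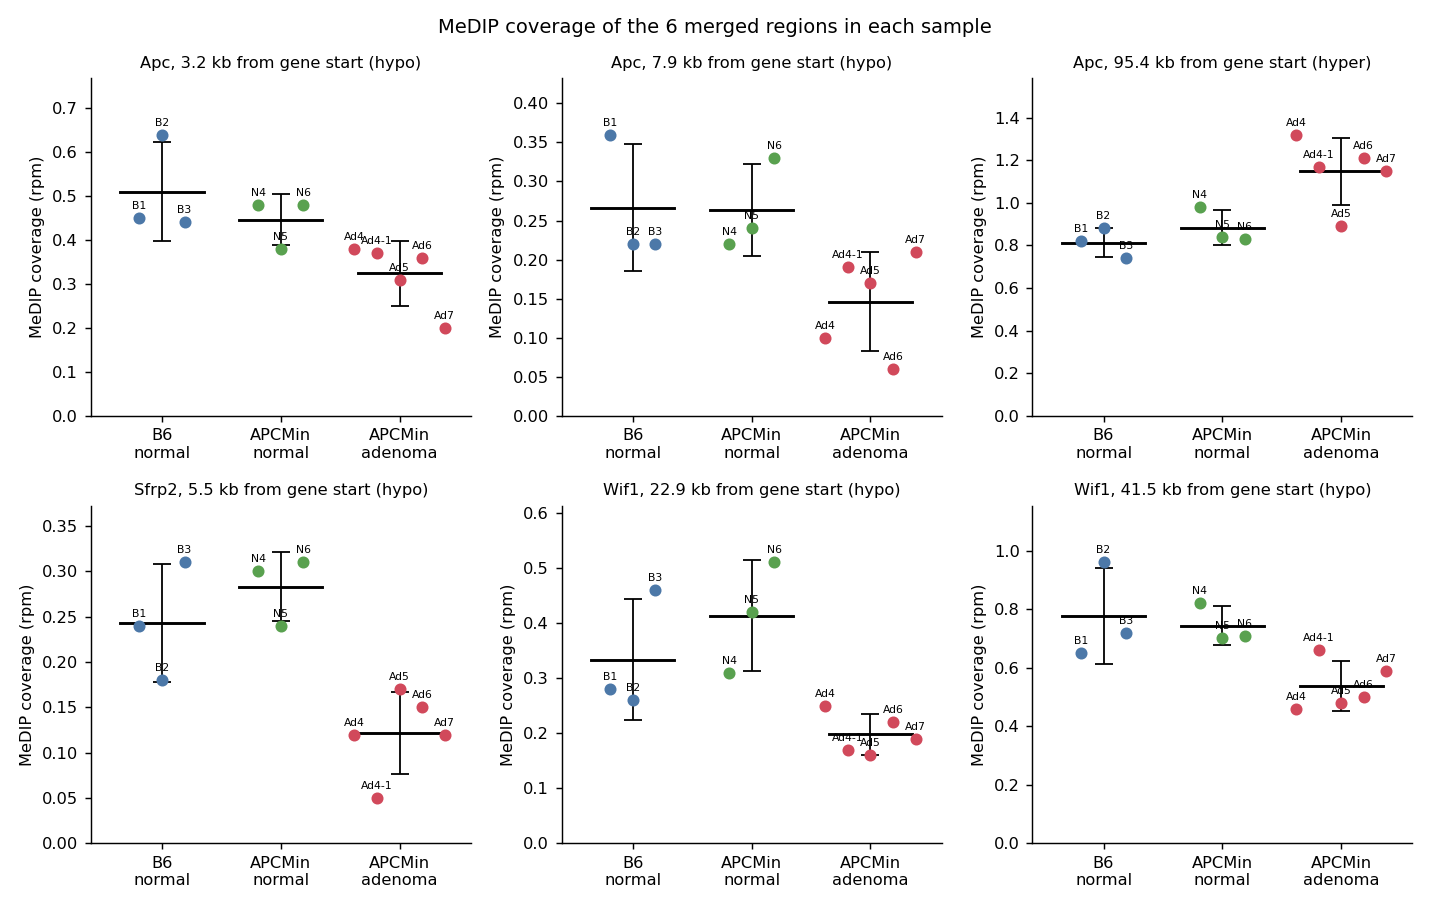
MeDIP coverage (rpm) of the 6 merged regions in each of the 11 samples, with the distance of the region from the gene start in each title. Points are samples, long bars are group means and error bars are 1 SD (n = 3 for both normal groups, n = 5 adenomas). The adenomas lie highest only in the Apc panel at 95.4 kb, and in 3 panels no adenoma overlaps a normal sample.

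By merged region, adenomas and normal samples did not overlap in 3 of the 5 hypo regions, where the share over all merged hypo regions was 51.9%, and they overlapped in the 1 hyper region, where the share without overlap over all merged hyper regions was 44.5%. By window, 2 of the 6 hypo windows separated, beside 51.6% of listed hypo windows, and the hyper window did not, beside 43.6% of listed hyper windows. Since the listing rested on the same contrast, nothing is read from these shares. In the gene bodies with their upstream 1000 bp, 3 of 407 windows of Apc, 1 of 34 of Sfrp2 and 3 of 268 of Wif1 were listed. Of the 10619552 windows of the genome, gaps included, 0.0577% were listed as hyper and 0.109% as hypo, and the windows that were not listed were not analysed here. The 3 genes were chosen with earlier results of these data known, so nothing is read from their counts beside these genome shares.

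The nearest listed window outside the rule lay 1013 bp past the end of Sfrp2, at chr3:83579251-83579750, and it also had lower coverage in adenoma. Its coverage was 1.32, 1.15 and 1.43 rpm in B1 to B3, 1.29, 1.34 and 1.27 rpm in N4 to N6, and 0.79, 0.61, 0.81, 1.05 and 0.64 rpm in Ad4, Ad4-1, Ad5, Ad6 and Ad7. Every adenoma was below every normal sample, with a gap of 0.10 rpm between Ad6 and B2. The means were 0.780 ± 0.175 rpm for adenoma and 1.30 ± 0.0921 rpm for normal samples, a log2 ratio of -0.70. The other neighbours were farther off, with a hypo window 22.8 kb upstream of Wif1, a hyper window 32.9 kb downstream of Apc a hyper window 79.3 kb downstream of Wif1, and windows 310 kb and 418 kb upstream of Apc and Sfrp2.

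In 3 animals normal intestine and adenoma could be compared within the same mouse, with 2 adenomas of animal 4. All 4 pairs had the listed direction in each of the 6 regions, as they had in 90.0% of all merged hyper regions and 91.2% of all merged hypo regions, and these samples were part of the listing. In Apc exon 16 the pair of animal 5 hardly differed, with 0.84 rpm in N5 and 0.89 rpm in Ad5, a log2 ratio of 0.079. The other 3 pairs of this region had log2 ratios of 0.24 to 0.52. In Sfrp2 the pairs ranged from -0.40 in animal 5 to -1.81 between N4 and Ad4-1, where coverage was 0.30 and 0.05 rpm. In Wif1 intron 2 the smallest difference, -0.26 between N4 and Ad4, stood beside -1.16 in animal 5 and -1.05 in animal 6. The intron 1 region of Apc at 3.17 kb was the most even, with -0.26 to -0.37 over the 4 pairs.

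**Figure D3:**
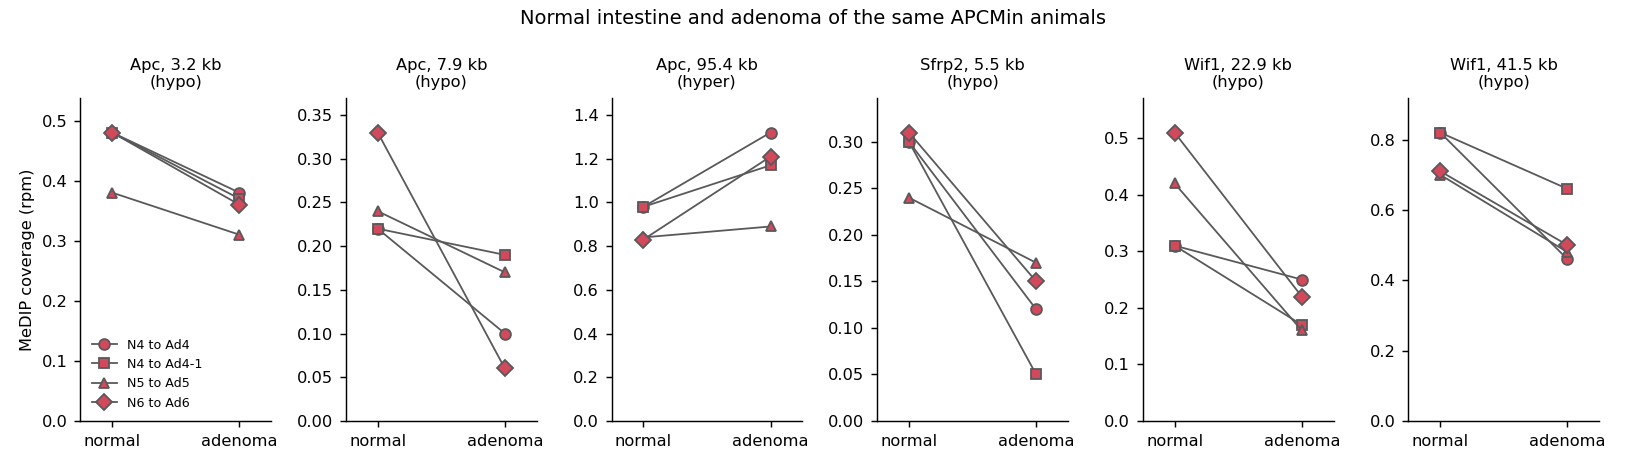
MeDIP coverage (rpm, axis from 0) of normal intestine and adenoma joined within the same APCMin animal for the 6 merged regions, with animal 4 giving 2 lines. All lines fall in the 5 hypo panels and rise in the Apc hyper panel, where the line of N5 to Ad5 is nearly flat (0.84 to 0.89 rpm).

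The 2 adenomas of animal 4 had unlike values at several regions. Coverage was 0.12 rpm in Ad4 and 0.05 rpm in Ad4-1 at Sfrp2, 0.46 and 0.66 rpm around Wif1 exon 3, and 0.10 and 0.19 rpm at the Apc intron 1 region at 7.92 kb. No adenoma was lowest throughout the hypo regions. The lowest value was that of Ad7 and Ad6 in the 2 Apc regions, of Ad4-1 in Sfrp2, and of Ad5 and Ad4 in the 2 Wif1 regions.

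Few fragments lay behind each value. A value corresponded to the bases of 1.44 fragments of 300 nt in the thinnest case, Ad4-1 at Sfrp2, and of 45.6 in the richest, Ad4 at Apc exon 16. The coefficient of variation among adenomas stayed below that which counting alone gives in all 6 regions, for example 37.3% against 46.6% at Sfrp2 and 13.8% against 15.3% at Apc exon 16. Differences among single adenomas, those of animal 4 included, thus did not exceed counting error at this depth. Among normal samples the spread was also below that from counting in 5 regions, and the exception was Wif1 intron 2, with 27.8% against 21.0% from counting. The listing used these same values and favours regions with little spread within a group. A low spread here is therefore partly fixed in advance, and nothing more is read from it.

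At Wif1 intron 2 the normal samples moved with the number in their library names. B1, B2 and N4, named MeDIP4, had 0.28, 0.26 and 0.31 rpm, and N5, N6 and B3, named MeDIP9 or MeDIP10, had 0.42, 0.51 and 0.46 rpm. The log2 ratio of adenoma to normal means was -0.36 within MeDIP4 (2 adenomas, 3 normal samples), -1.29 within MeDIP9 (1 and 2) and -0.92 within MeDIP10 (1 and 1). The labels do not say what the number stands for, and its part in the difference was not tested. At Apc exon 16 the values were 0.46, 0.087 and 0.67 in the same order, and at Sfrp2 they were -1.10, -0.56 and -0.85. The Wif1 exon 3 region was even, with -0.50, -0.51 and -0.49. For the Apc intron 1 regions the values were -0.43, -0.42 and -0.26 at 3.17 kb and -0.70, -0.61 and -1.30 at 7.92 kb. All of these had the listed direction. Ad7 was the only sample with its library name number, so it entered none of these ratios.

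Whether the normal intestine of APCMin mice already differed from that of B6 mice was a contrast the listing had not tested. The listing did use the same values, with both normal groups pooled against adenoma. Windows in which the normal groups lay far apart could therefore be listed less easily. The shares over all listed windows given below carry the same limit. Mean coverage at Wif1 intron 2, in its window starting at 120493501, was 0.430 ± 0.113 rpm in APCMin and 0.323 ± 0.111 rpm in B6 normal intestine (SD, n = 3 each), a log2 difference of 0.38. This was the widest difference of the 7 windows and its 95% interval in limma was -0.12 to 0.87. N5 and N6 shared no library name number with a B6 sample, so genotype and that number cannot be fully told apart here. At Sfrp2 the means were 0.283 ± 0.0379 and 0.243 ± 0.0651 rpm, a log2 difference of 0.20 with an interval of -0.33 to 0.73. At Apc exon 16 they were 0.883 ± 0.0839 and 0.813 ± 0.0702 rpm, a log2 difference of 0.11 with an interval of -0.30 to 0.52. The log2 differences of the other windows lay between -0.16 and 0.18. None of the 7 windows passed an adjusted p of 0.05 with limma, and none had an unadjusted p under 0.05, where 729 of all 17690 windows (4.12%) did. Over all windows limma called 0 as higher and 0 as lower (0% each). The exact two-sided permutation test of 3 against 3 samples gave p of 0.3 to 1 for these windows, and 0.1 is the smallest p that it can give. In none of the 6 merged regions did the normal groups separate, whereas APCMin lay above every B6 sample in 3.62% of all merged hyper and 3.02% of all merged hypo regions and below every B6 sample in 4.34% and 5.10% of them. The intervals of the 7 windows reached from -0.63 to 0.87 on the log2 scale, so the test does not show that the normal tissues were alike.

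Input DNA, sequenced without the antibody, gave few reads over these regions. At Sfrp2 the input coverage was 0.31, 0.14 and 0.32 rpm in B3, N4 and Ad7, which matched 1.67, 1.21 and 3.16 fragments. MeDIP coverage of the same samples there was 0.31, 0.30 and 0.12 rpm, so it did not exceed input in B3 and Ad7. At Wif1 intron 2 input was 0.50, 0.16 and 0 rpm, beside MeDIP coverage of 0.46, 0.31 and 0.19 rpm. At Apc 7.92 kb input was 0.19, 0.21 and 0.27 rpm, beside 0.22, 0.22 and 0.21 rpm. At the other regions MeDIP coverage exceeded input in each of these samples, and enrichment over input was not tested. At Apc exon 16 input was 0.19, 0.48 and 0.17 rpm. Over the 521 merged regions of chromosome 18 the input of Ad7 was 0.927 times that of N4, beside 0.964 over all 13980 merged regions. With 1 adenoma library, a change in DNA copies at a single region was not detectable at this depth.

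By the root mean square difference of log2(rpm + 0.05) over the 11 samples, the regions most like Apc exon 16 lay in Trpm4 (0.11), Rassf9 (0.18) and Pvrl4 (0.20), out of 3079 other hyper regions in or upstream of protein-coding genes. Those most like Sfrp2 lay in Ubash3b (0.22), Frem3 (0.23) and Lyg2 (0.23), out of 4861 hypo regions. For Wif1 intron 2 they lay in Smurf1 (0.20), Tiam1 (0.20) and Fam155a (0.21), and for Wif1 exon 3 in Arhgap21 (0.18), Hmcn2 (0.18) and Tshz2 (0.18). The Apc intron 1 regions were nearest to those in Tbc1d15 (0.14), Fgd3 (0.15) and Alas1 (0.17) at 3.17 kb, and to Eefsec (0.22), Tm9sf4 (0.23) and Ulk4 (0.24) at 7.92 kb. The measure takes in the level as well as the pattern, and all regions share the same libraries.

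Among 86 other genes of the pathway, none of the 12 other secreted inhibitors (Sfrp1, Sfrp4, Sfrp5, Frzb, Dkk1 to Dkk4, Sost, Sostdc1, Cer1 and Notum) had a listed window in either direction. Of all 22380 protein-coding genes, 11.1% held a hyper window and 14.2% a hypo window in the gene or the 1000 bp upstream. The inhibitor genes were short, with a median length of 5.97 kb against 15.4 kb of all protein-coding genes, so that each gene spans fewer windows. Over all 86 genes, 12 held a hyper window (13.95%) and 16 a hypo window (18.6%), 4 of them both (Gsk3b, Kremen1, Tcf7l2 and Wnt5b), at a median length of 25.9 kb.

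The cytoplasmic brakes had 2 genes with hyper windows and 3 with hypo windows of 12. Coverage was lower in adenoma in Fbxw11, a substrate receptor of the ubiquitin ligase for beta-catenin (0.140 ± 0.0534 against 0.307 ± 0.107 rpm, log2 ratio -0.91), in Nkd1, an inhibitor of Dishevelled (0.140 ± 0.0510 against 0.278 ± 0.0354 rpm, -0.79), and in Gsk3b, the kinase of the Apc complex (0.306 ± 0.110 against 0.562 ± 0.0915 rpm, -0.78). It was higher in Btrc, the paralogue of Fbxw11 (0.282 ± 0.0798 against 0.167 ± 0.0408 rpm, 0.62). Of 5 membrane brakes, which were long at a median of 70.0 kb, 1 held a hyper window and 2 a hypo window. Among them Kremen1, a receptor of Dkk proteins, held a hyper window (log2 ratio 0.58) and also hypo windows (-0.52 to -0.49). Rnf43, a ubiquitin ligase for Frizzled, held a hypo window (-0.56). Of 8 nuclear brakes, only the repressor Tcf7l1 held one, a hypo window with 0.312 ± 0.0217 rpm for adenoma and 0.505 ± 0.0394 rpm for normal samples.

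On the activating side, 9 of 49 genes held a hyper window and 10 a hypo window (18.4% and 20.4%). The shares over all protein-coding genes were 11.1% and 14.2%. The median gene length was 22.7 kb on the activating side and 25.2 kb in the transducers, against 15.4 kb, so nothing is read from these counts. The transducers had 4 of 11 genes with hypo windows, among them Tcf7l2, the main TCF of the intestine (0.140 ± 0.0596 against 0.373 ± 0.0739 rpm, log2 ratio -1.16), Lef1 (-0.93) and the co-activator Pygo1 (-0.55), while Tcf7 held a hyper window (0.57). The co-receptors Lrp6 (-0.94) and Lrp5 (-0.93) held hypo windows, and the Frizzled receptors Fzd5 (0.80) and Fzd2 (0.75) held hyper windows. Among the ligands, Wnt10a (0.73) and Wnt3 (0.72) held hyper windows and Wnt7b (-0.72) and Wnt5b (-0.71) hypo windows. Apart from Kremen1, each gene is given by its window with the largest ratio alone. Gsk3b, Tcf7l2 and Wnt5b, given by a hypo window, also held hyper windows, with log2 ratios of up to 0.54, 0.69 and 0.48. Both directions thus occurred among brakes and among activators, and these windows too had been listed by the contrast described.

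**Figure D4:**
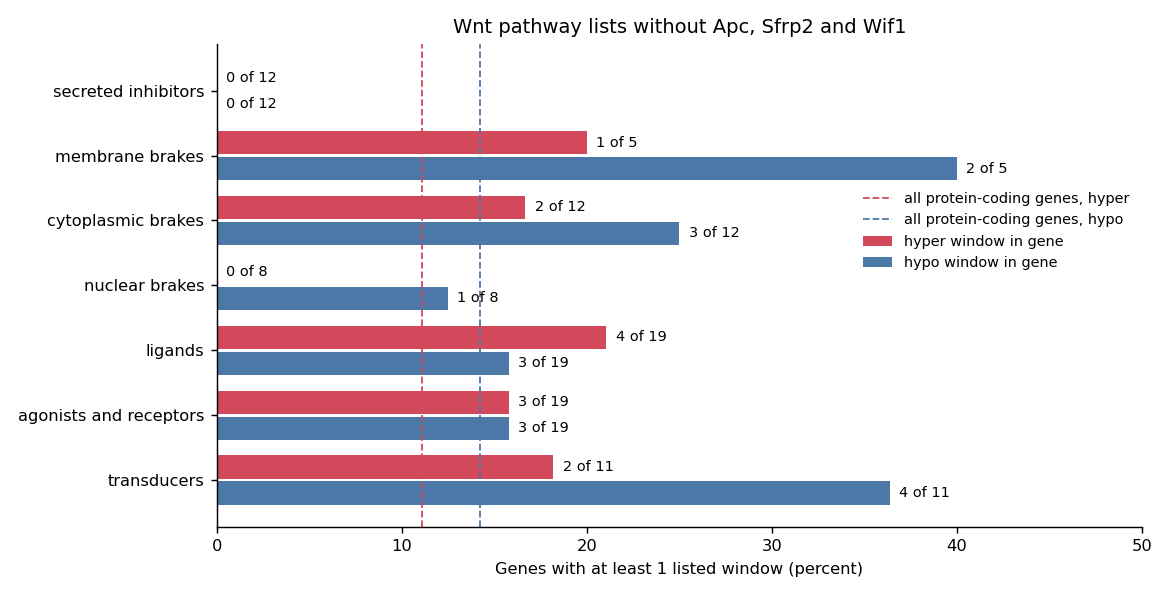
Percent of genes with at least 1 listed hyper or hypo window in the gene or the 1000 bp upstream, for 7 Wnt lists that leave out Apc, Sfrp2 and Wif1. Bars carry counts of genes, and dashed lines are the shares of all protein-coding genes (11.1% hyper, 14.2% hypo). The secreted inhibitors have none in either direction, and hyper bars stand in 5 of the other lists.

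Depth was 13878615 to 26297510 uniquely aligned reads in the 11 MeDIP-seq libraries and 3228908 to 5931425 in the 3 input libraries. Ad7, the library with the fewest reads, was the lowest adenoma in 1 of the 6 regions. The RNA of the 3 genes was not analysed here.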

How the data were processed

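MeDIP-seq, in which an antibody against 5-methylcytidine enriches methylated DNA, was carried out in 11 samples, and 3 libraries of input DNA were sequenced beside them. The submitters' processing notes name Bowtie 0.12.5 and mm9. According to the study's methods, reads were extended to 300 nt and coverage was averaged over windows of 500 bp every 250 bp. The deposited values were made by the authors as RPM (mean coverage per 1000000 uniquely aligned reads) and carry 2 decimals. The authors listed windows with a Wilcoxon p under 0.01, a minimum ratio of group means and over 0.25 rpm in a group, and merged overlapping windows. Their ratio and p columns were not used.

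The members and gene lists were chosen with earlier results of these data known. Gene positions came from gencode vM1 on NCBIM37, the same build as mm9, and all 17690 windows lay within its chromosomes. Groups were taken from the sample labels. Adenoma and normal intestine were compared by values alone. APCMin and B6 normal intestine were compared with limma 3.58.1 (log2(rpm + 0.05), 3 groups of 11 samples, adjustment by Benjamini and Hochberg over 17690 windows) and with an exact permutation test of each window. On simulated data with the spread of these samples, limma recovered 53 of 100 windows changed by 1 and 98 of 100 changed by 2 on the log2 scale between APCMin and B6 normal intestine, over 17690 windows, with 10 false calls. The noise was drawn as normal on the log2 scale, and the many changed windows eased the adjustment. The member differences were at most 0.38, smaller than either simulated size, so this recovery does not give the power for them. Library totals were those the study gives, and fragments were computed from them as coverage times window length over 300 nt. Counting errors assume independent fragments and cover counting alone. Replicates within a group were separate animals, except for Ad4 and Ad4-1. The animal labels pair normal intestine and adenoma, and the deviations from the group means over all merged regions correlated at -0.05 to 0.03 in the 4 pairs of the same animal and at -0.03 to 0.07 in the 11 pairs of different animals.

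Named genes were the 3 genes with all their regions, from each Wnt list at most 4 genes with the largest log2 ratio of a listed window, and the 3 regions most like each region. Amer1 was found as Fam123b. The planned edgeR test of RNA was not run, because the deposited gene table used here holds column descriptions and no values. The study's supplementary gene table, held here only in part, was not used as a source of values, and RNA was not analysed here. Alternatives were other constants, sets of samples and window criteria.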

Additional observations from a re-analysis of the deposited data

How the results depend on the processing

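The direction of the 6 merged regions between adenoma and normal intestine held under every alternative that was run. The regions had been listed for this direction in the same samples, so it could hardly have turned, and this adds no support. Leaving out each of the 11 samples in turn gave log2 ratios of 0.36 to 0.49 at Apc exon 16, -0.55 to -0.38 and -0.81 to -0.53 at the Apc intron 1 regions at 3.17 kb and 7.92 kb, -0.97 to -0.72 at Sfrp2, -0.85 to -0.68 at Wif1 intron 2 and -0.54 to -0.39 around Wif1 exon 3. With the replicate block, as the mean of within-animal differences, the values were 0.31 at Apc exon 16, -0.32 and -0.90 in Apc intron 1, -0.89 at Sfrp2, -0.90 at Wif1 intron 2 and -0.50 around Wif1 exon 3, and the block changed no direction. Adding 0.5 rpm in place of 0.05 shrank the ratios of the thinly covered regions by construction, to -0.24 at Apc 7.92 kb, -0.30 at Sfrp2 and -0.32 at Wif1 intron 2. Within libraries of 1 name number, of which MeDIP9 and MeDIP10 were added after the data had been seen, the ratio of Wif1 intron 2 was -0.36 (MeDIP4) and -1.29 (MeDIP9), that of Apc exon 16 was 0.087 (MeDIP9) and 0.67 (MeDIP10), and that of Apc 7.92 kb was -1.30 (MeDIP10). Ad7, alone in its number, entered none of these ratios, and the cause of their differences was not tested. Of the 7 windows, 2 remained with a ratio of means above 2, 2 with complete separation and 2 with at least 0.5 rpm in the higher group. Of the 86 Wnt genes, 4 kept a hyper window with complete separation and 0 kept one with a ratio above 2. The shares of all protein-coding genes were 5.76% and 1.32%. A hypo window was kept by 12 Wnt genes with complete separation and by 5 with a ratio above 2, where those shares were 8.66% and 3.91%. The Wnt values are counts out of 86 genes, not percentages. The Wnt genes were also longer, at a median of 25.9 kb against 15.4 kb, and no test was run between them and all genes.

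Between APCMin and B6 normal intestine, limma called 0 of the 7 windows, and 0 of all windows, under every alternative, with 506 to 949 windows of all those tested at an unadjusted p under 0.05. Leaving out single samples turned the direction of 3 windows that were near 0 or not called. At Apc 7.92 kb the log2 difference was 0.20 without B1, 0.10 without N4 and 0.05 without N5. It was -0.014 at the second window of Wif1 intron 2 without N6, and 0.11 around Wif1 exon 3 without B2. The ranges over the samples left out were -0.15 to 0.20, -0.014 to 0.40 and -0.16 to 0.11 for these 3 windows. At the first window of Wif1 intron 2 it was 0.59 without B3 or without N4, at an unadjusted limma p of 0.029 and 0.032. Without N4 the B6 and APCMin samples shared no library name number, and without B3 only N4 shared its number with B6 samples. Genotype and that number thus cannot be told apart in these fits. Over all samples left out one at a time, the 7 differences ranged from -0.25 to 0.59.

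The alternatives for RNA were not run, since no RNA values were used here. Depth limits all 6 regions, least so Apc exon 16, where each library had at least 24.8 fragments. The thinnest value, that of Ad4-1 at Sfrp2, rests on the bases of 1.44 fragments. The tables hold listed windows alone, so a gene without one cannot be told apart from a gene that could not be measured.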
